A study of Homo sapiens with 6 samples.

Results

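The genes described here are the DNA repair and Fanconi anemia genes of A549, an established human cell line of lung adenocarcinoma, chosen by a pattern of symbols. A protein-coding gene was a member if its symbol named a FANC, RAD, XRCC1 to XRCC6, BRCA1 or BRCA2, PALB2, BRIP1, MSH, MLH, PMS1 or PMS2, or ERCC1 to ERCC8 gene. The count table held 55 such genes among 30230 genes, of which 17075 were protein-coding, and 53 of the 55 had enough counts to be tested. A symbol pattern of this kind also takes in genes of the same name with another main function, such as RAD21, a subunit of the cohesin ring. Polyadenylated RNA was sequenced in 3 control libraries (NC) and in 3 libraries made after silencing of FSCN1 with a single siRNA (siFSCN1). FSCN1 encodes fascin, a protein that bundles actin filaments. The control cells carried a scrambled siRNA according to the study's methods, while their treatment label names a control plasmid. All 6 libraries came from the same line. The study calls the replicates biological, while nothing in the sources used here says that they were separate cultures, and the p-values measure the spread between these libraries, whatever its source.

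DNA repair is divided among pathways that each recognise a different lesion. The Fanconi anemia pathway unhooks crosslinks between the strands, with a core complex that places ubiquitin on the FANCD2 and FANCI pair, and it hands the resulting break to homologous recombination, in which BRCA2 and PALB2 act as mediators of strand exchange. Non-homologous end joining seals breaks through the Ku dimer of XRCC6 and XRCC5, mismatch repair corrects replication errors through MutS and MutL dimers, and nucleotide excision repair cuts out bulky lesions such as ultraviolet photoproducts. Recombination and mismatch repair act mostly behind or beside the replication fork, and many of their genes are known to be transcribed mainly in S phase through E2F factors.

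FSCN1 itself had deposited FPKM values (fragments scaled to gene length and sequencing depth) of 44.98, 47.24 and 45.99 in NC replicates 1 to 3 and of 4.46, 2.82 and 3.19 in siFSCN1 replicates 1 to 3. Its level thus fell to 6.75% of NC, and no siFSCN1 library reached the NC range. The libraries held between 27967301 and 36560919 counts. The epithelial markers EPCAM, CDH1, KRT7, KRT8 and KRT18 were all at 1 FPKM or more and summed to between 3100 and 3480 FPKM in NC and between 1750 and 2110 FPKM in siFSCN1. Of 5 alveolar type 2 markers in the table only ABCA3 reached 1 FPKM, and NKX2-1, SFTPC and LAMP3 lay under 0.1 FPKM. No leukocyte, fibroblast or endothelial marker reached 1 FPKM, and their summed levels were 0.43 to 0.78, 0.48 to 0.55 and 0.01 to 0.04 FPKM in NC and 0.26 to 0.33, 0.35 to 0.67 and 0.02 to 0.04 FPKM in siFSCN1. The share of counts from mitochondrial protein-coding genes ran from 8.61% to 9.29% in NC and from 12.6% to 12.8% in siFSCN1, and its part in the results that follow was not tested.

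Silencing of FSCN1 changed 37 of the 53 tested repair genes at an adjusted p under 0.05 in edgeR's quasi-likelihood test, a share of 69.8% beside 68.3% of all 17076 tested genes, so that repair genes as such were called about as often as any gene. Of these, 25 fell (47.2%, beside 33.2% of all tested genes) and 12 rose (22.6%, beside 35.1%), a split of 67.6% lower that turned to 45.5% lower, with 15 genes lower and 18 higher, when libraries were scaled by their totals alone. Among protein-coding genes as a whole, 72.1% of those tested were called, 38.0% lower and 34.1% higher. The shifts were mostly small. Only 3 repair genes (beside 16.5% of all tested genes) changed at least 2-fold, among them FANCC, which fell, and MSH5, which rose. The CPM (counts scaled to library size with TMM factors) of 35 tested members, or 66.0%, did not overlap between the groups, beside 71.3% of all tested genes. The median log2 fold change of the members was -0.19, beside 0.031 for all tested genes and -0.024 for the protein-coding ones, the type to which every member belongs. Scaling by the upper quartile or by library totals moved the median of all tested genes to 0.15 and 0.22. Such scalings shift every gene nearly alike, which leaves the difference of -0.23 between the members' median and that of all genes in place by construction. That difference was -0.13 with the trend of fold change with abundance removed, -0.19 with limma on log2(FPKM + 0.1) and -0.10 with limma on log2(FPKM + 1). The log2 fold changes given below are those under TMM scaling, and counts by role are to be set beside the same 33.2% lower and 35.1% higher of all tested genes. In libraries of whole cultures, fewer cells that express a gene and less of its RNA per cell cannot be told apart.

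**Figure D1:**
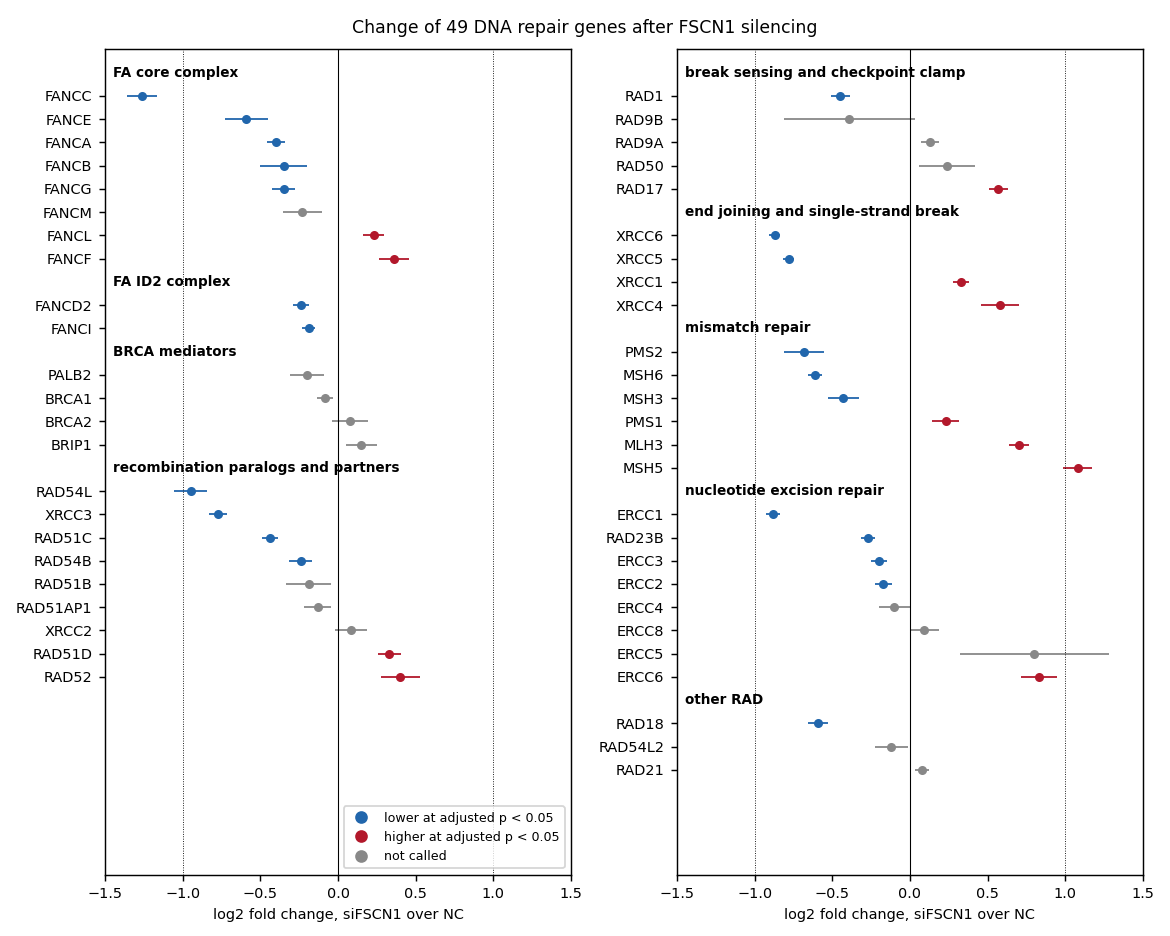
Log2 fold change of siFSCN1 over NC for 49 of the tested repair genes, grouped by role, with the standard error from edgeR as a bar. Blue marks the 22 of these genes lower and red the 11 higher at an adjusted p under 0.05 with TMM scaling (14 lower and 17 higher with library totals), grey the 16 not called, and the dotted lines mark a 2-fold change, which FANCC and MSH5 passed.

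By deposited FPKM in NC, which is scaled to gene length, abundant members were XRCC6 with a mean of 132 FPKM, XRCC5 with 62.4, RAD23B with 26.9, ERCC1 with 18.8 and RAD21 with 18.6. The scarcest tested members were ERCC5 with 0.0133 FPKM, RAD9B with 0.123, ERCC6 with 0.177 and RAD50 with 0.203. ERCC5 and RAD50 share exons with genes on the same strand, which limits what their FPKM values hold. They made up 1.67% and 5.58% of the counts summed with BIVM-ERCC5 and AC116366.7. Of the 14 members with at least 5 FPKM in NC, 10 fell, 3 rose and 1 was not called. Of the 39 below 5 FPKM, 15 fell, 9 rose and 15 were not called. The shares of all tested genes that fell or rose above and below 5 FPKM were not computed. These counts by level are therefore not read as a trait of repair genes, since fold change also fell with abundance across all tested genes. Across the 53 members Spearman's rho between log2 NC level and log2 fold change was -0.34, and across 17072 tested genes it was -0.48. These are descriptions across genes that share the same 6 libraries. With the trend of fold change with abundance removed, 24 members were lower and 12 higher.

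**Figure D2:**
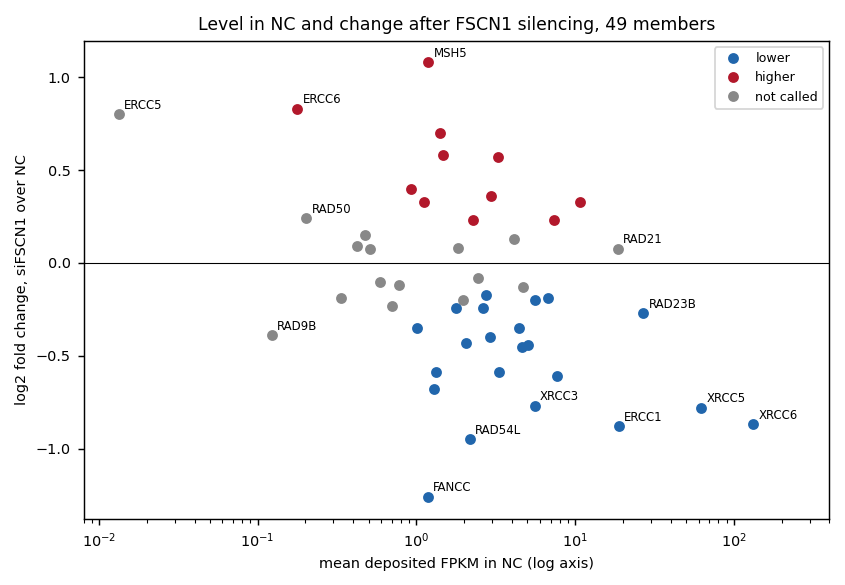
Log2 fold change of siFSCN1 over NC (vertical axis, TMM scaling) against the mean deposited FPKM in NC (horizontal log axis) for 49 of the tested members, one point per gene. XRCC6 and XRCC5 stand at the far right at 132 and 62.4 FPKM with falls, and the scarce ERCC6 stands at the left with a rise.

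A total of 7 members that fell under TMM scaling carried a match to the E2F recognition letters near an annotated transcription start. They are shown first because, with the same calls, these letters were found near none of the members that rose. Windows of 250 bases before to 50 bases after each start site came from RefSeq (GRCh38.p14), matched 47 of the 55 members by symbol, and were searched on both strands for TTTGGCGC, TTTCGCGC, TTTCCCGC and TTTGCCGC. The 30 bases around the first match are given below 5′ to 3′ on the strand of the gene, with each match in capitals. In MSH3 a match on each strand shares 4 letters.
FANCA, chr16:89816801-89816830, minus strand: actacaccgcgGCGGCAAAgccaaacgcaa
FANCC, chr9:95317863-95317892, minus strand: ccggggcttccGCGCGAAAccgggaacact
FANCD2, chr3:10026424-10026453, plus strand: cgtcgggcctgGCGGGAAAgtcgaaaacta
MSH3, chr5:80654534-80654563, plus strand: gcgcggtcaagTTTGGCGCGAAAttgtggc
MSH6, chr2:47783137-47783166, plus strand: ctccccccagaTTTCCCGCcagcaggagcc
PMS2, chr7:6009131-6009160, minus strand: cgggaagtattTTTGCCGCcccgcccggaa
XRCC6, chr22:41621315-41621344, plus strand: tgtccaagttggtcgcttccctGCGCCAAA

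The first match began 172 bases before the start site in FANCA and FANCC, 107 bases before it in MSH3 and 100 or 43 bases before the 2 annotated starts of PMS2. It lay within 3 bases of the start site in FANCD2 and of an annotated start of MSH6, and in XRCC6 it lay 42 bases downstream. FANCC and MSH6 also have annotated starts whose windows held no match. A gene was counted if any of its windows held a match. Of the members with a promoter window that fell, 7 of 19 (36.8%) held a match, against 0 of 11 that rose and 1 of 15 that were not called (XRCC2). Over all tested members with a window it was 8 of 45 (17.8%). This split belongs to the calls under TMM scaling. With library totals XRCC2 passed as higher (0.27, adjusted p = 0.029) and FANCD2 was no longer called (-0.055, adjusted p = 0.39). Both limma fits changed these 2 calls in the same way. Among all tested genes with a window the share was 6.48%, among those that fell 7.82% and among those that rose 5.70%, and it was 3.99% over all 27305 genes with a window. The CCAAT letters of the NF-Y box were found in 9 of 19 members that fell, 6 of 11 that rose and 42.5% of all tested genes. The short letters of the cell cycle homology region (TTTGAA or TTCGAA, which occur often by their length) were found in 2 of 19 members that fell, 4 of 11 that rose and 15.4% of all tested genes. A match describes the letters of a window and is not evidence that a factor binds there.

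**Figure D3:**
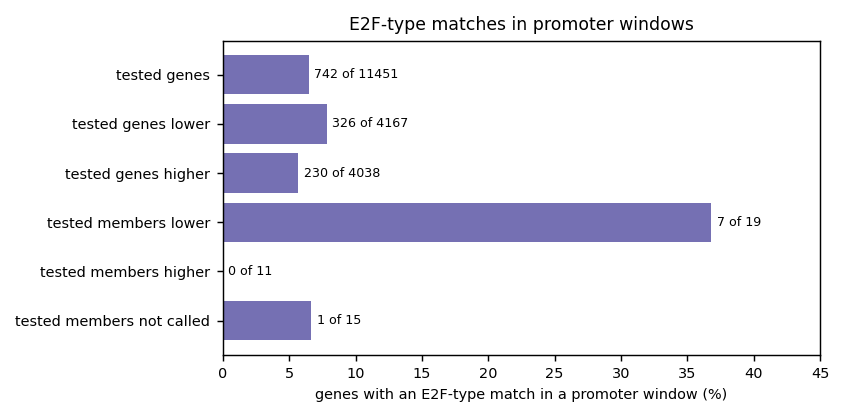
Percent of genes with at least 1 E2F-type match in a promoter window, for all tested genes, tested genes that fell or rose, and tested members that fell, rose or were not called (edgeR, TMM scaling), with the number of genes beside each bar. The bar of members that fell reaches 36.8% (7 of 19), that of members that rose is at 0 (0 of 11), and that of all tested genes is at 6.48%.

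In the Fanconi anemia core complex, 5 of 8 genes fell and 2 rose (3 and 2 with library totals), with a median log2 fold change of -0.35. Of all tested genes 33.2% fell and 35.1% rose. FANCC, a subunit of the part of the core that docks the substrate (ENSG00000158169, GRCh38 chr9:95099054-95426796), had 17.7, 20.5 and 18.9 CPM in NC replicates 1 to 3 and 7.41, 8.17 and 8.24 CPM in siFSCN1. The groups lay far apart, giving a log2 fold change of -1.26 (SE 0.0969, adjusted p = 1.8e-09). FANCE, which binds FANCC and FANCD2, followed at -0.59 ± 0.141 (SE, adjusted p = 0.0013), FANCA and FANCG, which form a scaffold of the core, at -0.40 and -0.35, and FANCB at -0.35. FANCF, the adaptor between these parts, went the other way, with 13.2, 10.6 and 12.9 CPM in NC and 16.5, 14.9 and 15.8 CPM in siFSCN1, which do not overlap. Its log2 fold change was 0.36 (SE 0.0976, adjusted p = 0.0032). FANCL, the ubiquitin ligase subunit, rose by 0.23 (SE 0.0686, adjusted p = 0.0063), and FANCM, the translocase that anchors the core to chromatin, had -0.23 and was not called (adjusted p = 0.11). The FANCG call was lost with library totals (-0.16, adjusted p = 0.067) and both limma fits. The call for FANCB was weak, at an adjusted p of 0.048, and was lost in DESeq2 (adjusted p = 0.1), with library totals (-0.16) and upper quartile scaling (-0.23), with the stricter filter, the replicate block and both limma fits, and without any 1 of 5 libraries, at -0.23 (adjusted p = 0.23) without NC replicate 2 and -0.35, -0.39, -0.27 and -0.42 (adjusted p = 0.095, 0.056, 0.17 and 0.054) without NC replicate 3 and siFSCN1 replicates 1, 2 and 3. Without NC replicate 1, FANCL was no longer called (0.16, adjusted p = 0.071) and FANCM was (-0.37, adjusted p = 0.015), as it was with the abundance trend removed (-0.43, adjusted p = 0.0061).

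The RNAs of the 2 proteins that the core ubiquitinates fell together and little. FANCD2 had 26.5, 26.8 and 26.4 CPM in NC and 22.4, 21.9 and 23.0 CPM in siFSCN1, with a log2 fold change of -0.24 (SE 0.0523, adjusted p = 0.00049). FANCI had 96.6, 99.7 and 105 CPM in NC and 86.7, 88.1 and 88.9 CPM in siFSCN1, with a log2 fold change of -0.19 (SE 0.0447, adjusted p = 0.00087). Neither gene's groups overlapped, although both calls were lost when libraries were scaled by totals, at -0.055 and -0.0072, and with both limma fits. The FANCI call was also lost with upper quartile scaling (-0.077, adjusted p = 0.14) and with the abundance trend removed (-0.0044, adjusted p = 0.94). Their ratio was 0.275, 0.269 and 0.250 FANCD2 counts per FANCI count in NC and 0.258, 0.249 and 0.259 in siFSCN1, which overlap.

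The mediators of homologous recombination were not called. None of BRCA1, BRCA2, PALB2 and BRIP1, the last a helicase bound to BRCA1, passed the adjusted threshold in edgeR, none had an unadjusted p under 0.05, and DESeq2 also called 0 of 4. PALB2, the bridge between BRCA1 and BRCA2, had 11.9, 10.2 and 13.1 CPM in NC and 10, 9.84 and 11.0 CPM in siFSCN1, with a log2 fold change of -0.20 (SE 0.109, adjusted p = 0.12). BRCA1 had 28.8, 27.8 and 29.2 CPM in NC and 26.3, 26.8 and 28 CPM in siFSCN1, at -0.083 (SE 0.0501, adjusted p = 0.15), a sign that turned to 0.034 with upper quartile scaling and 0.10 with library totals. BRCA2 and BRIP1 stood at 0.076 (SE 0.117) and 0.15 (SE 0.101). The groups overlapped for all 4 genes. PALB2 passed without NC replicate 2 (-0.29, adjusted p = 0.028) and without siFSCN1 replicate 3 (-0.26, adjusted p = 0.039) and with the abundance trend removed (-0.31, adjusted p = 0.018). BRIP1 passed with library totals (0.34, adjusted p = 0.008), upper quartile scaling (0.27, adjusted p = 0.027) and limma on log2(FPKM + 1) (0.11, adjusted p = 0.043).

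RAD54L, a motor protein of strand invasion, fell at -0.95 (SE 0.107, adjusted p = 3.1e-07), from between 10.8 and 11.4 CPM in NC to between 5.50 and 6.13 CPM in siFSCN1. It passed the 2-fold line without siFSCN1 replicate 1 (-1.02).

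Among the recombination paralogs, which act in 2 complexes at the site of strand exchange, the directions differed. XRCC3 fell at -0.77 (SE 0.0581, adjusted p = 1.3e-09), from between 51.5 and 53.7 CPM to between 27.9 and 32.2 CPM, and RAD51C, which belongs to both complexes, fell at -0.44 (SE 0.0515, adjusted p = 5.4e-07). RAD51D rose at 0.33 (SE 0.0744, adjusted p = 0.00082), while RAD51B (-0.19, adjusted p = 0.26) and XRCC2 (0.083, adjusted p = 0.48) were not called. With the abundance trend removed RAD51B passed as lower (-0.48, adjusted p = 0.0082), and XRCC2 passed as higher with library totals (0.27, adjusted p = 0.029) and both limma fits (adjusted p = 0.038 and 0.039). RAD52, an annealing protein and mediator, had 5.40, 5.51 and 4.97 CPM in NC and 7.21, 5.86 and 7.77 CPM in siFSCN1, which do not overlap, and rose by 0.40 (SE 0.126, adjusted p = 0.0095). That call was lost without siFSCN1 replicate 3 (0.30, adjusted p = 0.082) and with the abundance trend removed (0.18, adjusted p = 0.21). RAD54B fell at -0.24 (adjusted p = 0.008), a call lost with upper quartile scaling (-0.13, adjusted p = 0.15), library totals (-0.056, adjusted p = 0.55) and both limma fits (adjusted p = 0.3 and 0.31). RAD51AP1, an accessory protein of recombination, was not called (-0.13, adjusted p = 0.19). Of the 9 genes of recombination described here 4 fell and 2 rose (3 and 3 with library totals), beside 33.2% and 35.1% of all tested genes.

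**Figure D4:**
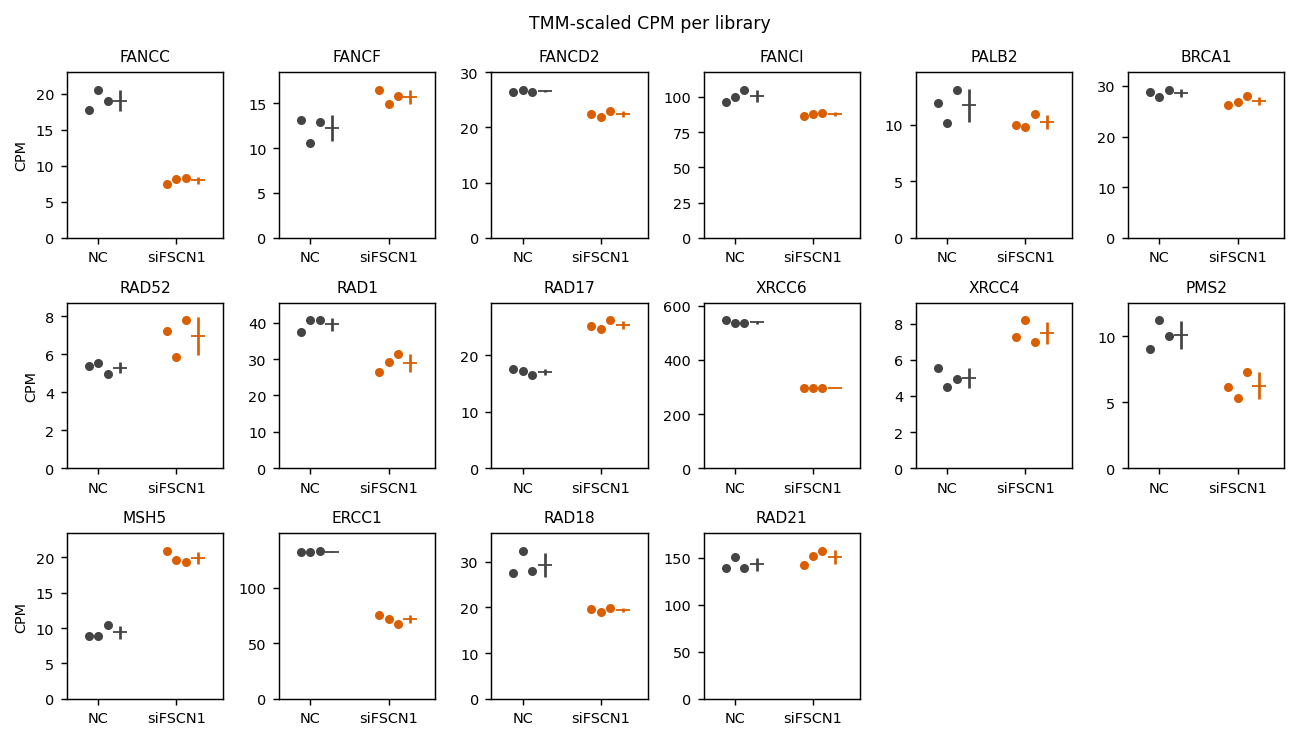
CPM after TMM scaling in each of the 6 libraries (points) with the group mean and SD (n = 3) beside them, for 16 members, drawn from those changed at least 2-fold and those with the lowest and highest log2 fold change of each role at 1 FPKM or more. The groups of PALB2, BRCA1 and RAD21 overlap and those of the other 13 genes do not, a split favoured by how the genes were drawn. Groups do not overlap for 66.0% of tested members and 71.3% of all tested genes. The drops of FANCC, XRCC6 and ERCC1 and the rises of MSH5 and RAD17 span several group SDs.

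Of 5 genes for sensors of breaks and of stalled forks, 1 fell, 1 rose and 3 were not called (1 lower and 3 higher with library totals). The 2 called genes, RAD17 and RAD1, act in one machine and moved in opposite directions. RAD17, the loader of the checkpoint clamp, rose from 17.5, 17.2 and 16.5 CPM in NC to 25.2, 24.6 and 26.1 CPM in siFSCN1 (log2 fold change 0.57, SE 0.0592, adjusted p = 1.1e-07). RAD1, a subunit of the clamp that RAD17 loads, fell from 37.4, 40.6 and 40.6 CPM to 26.5, 29.1 and 31.3 CPM (-0.45, SE 0.0612, adjusted p = 3.5e-06). HUS1, the other subunit of that clamp and no member by symbol, fell at -0.73, and RAD9A had 0.13 and was not called (adjusted p = 0.055). RAD9A passed as higher in 8 of the 16 alternatives, among them library totals (0.32, adjusted p = 0.00012) and leaving out NC replicate 1 (0.18, adjusted p = 0.027). RAD9B, a testis-enriched relative of RAD9A, had 8 to 35 counts in siFSCN1 and 19 to 26 in NC, and its value of -0.39 became -1.24 (adjusted p = 0.016) without siFSCN1 replicate 2, the library with 35 counts.

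The RNAs of both subunits of Ku, the ring that captures broken ends, fell and fell alike. XRCC6 (Ku70, ENSG00000196419, GRCh38 chr22:41621163-41664048) had 546, 537 and 537 CPM in NC and 297, 295 and 297 CPM in siFSCN1, with a log2 fold change of -0.87 (SE 0.0343, adjusted p = 2.1e-13), the smallest adjusted p among the members. XRCC5 (Ku80) ran from 424 to 435 CPM in NC and from 245 to 256 CPM in siFSCN1 (-0.78, SE 0.0355, adjusted p = 1.3e-12). In deposited FPKM the means were 132 and 81.4 for XRCC6 and 62.4 and 40.8 for XRCC5. The other 2 XRCC genes of this group rose. XRCC4, the partner of DNA ligase IV, had 5.54, 4.48 and 4.94 CPM in NC and 7.27, 8.17 and 7.0 CPM in siFSCN1 (0.58, SE 0.12, adjusted p = 0.00033), and XRCC1, the scaffold of single-strand break repair, rose at 0.33 (SE 0.0508, adjusted p = 1.5e-05). GENCODE names 5 pseudogenes after XRCC6, so reads that fit both could be assigned to either or lost.

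The 6 mismatch repair genes described here were all called by edgeR, 3 lower and 3 higher, also with library totals. Of all tested genes 68.3% were called. MSH6, a MutS subunit that recognises base mismatches, fell at -0.61 (SE 0.044, adjusted p = 8.1e-10), from between 105 and 108 CPM to between 67.3 and 71.6 CPM. MSH3, the MutS subunit for larger loops, fell at -0.43 (adjusted p = 0.0009). PMS2, the endonuclease subunit of the main MutL dimer, had 9.07, 11.2 and 9.99 CPM in NC and 6.13, 5.34 and 7.33 CPM in siFSCN1 (-0.68, SE 0.128, adjusted p = 0.00012). GENCODE names 17 pseudogenes after PMS2, and its counts are uncertain to that extent. MLH3, a MutL subunit of meiotic crossover with a lesser part in mismatch repair, rose from between 14.2 and 15.4 CPM to between 23.0 and 24.9 CPM (0.70, SE 0.0646, adjusted p = 2.2e-08). PMS1 rose at 0.23 (adjusted p = 0.025), a call lost in DESeq2 (0.20, adjusted p = 0.1), with the abundance trend removed (0.19, adjusted p = 0.061) and without NC replicate 1 (0.18, adjusted p = 0.083), NC replicate 3 (0.16, adjusted p = 0.18) or siFSCN1 replicate 2 (0.19, adjusted p = 0.12).

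MSH5, the subunit of the meiotic MutS dimer, showed the largest rise of all members. The gene (ENSG00000204410, GRCh38 chr6:31739677-31762676) had 8.82, 8.85 and 10.5 CPM in NC and 20.9, 19.6 and 19.3 CPM in siFSCN1, with a log2 fold change of 1.08 (SE 0.0913, adjusted p = 6.5e-09). Its partner MSH4 was not tested, with 6, 0 and 4 counts in NC and 0 in each siFSCN1 library. MSH5 shares 44.4% of its exonic bases on the same strand with MSH5-SAPCD1, a readthrough gene that joins it to its neighbour. MSH5-SAPCD1 had 52, 50 and 63 counts in NC and 411, 406 and 333 counts in siFSCN1, a log2 fold change of 2.62 (SE 0.136, adjusted p = 7.7e-12). Summed over both genes, NC had 11.2 ± 0.966 CPM and siFSCN1 31.3 ± 1.95 CPM (SD, n = 3), a log2 ratio of 1.48. How the rise is divided between the 2 transcripts cannot be told apart from counts per gene.

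Of the 8 genes of nucleotide excision repair described here 4 fell and 1 rose, beside 33.2% and 35.1% of all tested genes. The split turned to 1 and 2 with library totals and to 2 and 1 with upper quartile scaling. ERCC1, the partner of the XPF nuclease (ENSG00000012061, GRCh38 chr19:45407334-45478828), had 132, 132 and 133 CPM in NC and 75.7, 71.9 and 67.7 CPM in siFSCN1, with a log2 fold change of -0.88 (SE 0.046, adjusted p = 8.6e-12). ERCC4, which encodes XPF, was not called, at -0.10 (SE 0.101, adjusted p = 0.39), and its sign turned with upper quartile scaling (0.017) and library totals (0.087). RAD23B, a partner of the damage sensor XPC, fell at -0.27 (SE 0.0434, adjusted p = 2.5e-05), a call lost with library totals (-0.082, adjusted p = 0.11), the abundance trend removed (-0.051, adjusted p = 0.32) and both limma fits (-0.10, adjusted p = 0.072 and 0.073). XPC, no member by symbol, rose at 0.73 (SE 0.061, adjusted p = 5.4e-09). The TFIIH helicases ERCC3 and ERCC2 fell at -0.20 and -0.17. The ERCC3 call was lost with upper quartile scaling (-0.082, adjusted p = 0.16), library totals (-0.013, adjusted p = 0.83), the abundance trend removed (-0.053, adjusted p = 0.37) and both limma fits (adjusted p = 0.6). The ERCC2 call was lost without NC replicate 2 (-0.15, adjusted p = 0.062) or siFSCN1 replicate 2 (-0.16, adjusted p = 0.058), with upper quartile scaling (-0.049, adjusted p = 0.47) and in both limma fits, and its value was 0.02 with library totals. ERCC6, the remodeller of transcription-coupled repair, rose at 0.83 (SE 0.114, adjusted p = 3.8e-06) from between 127 and 183 counts to between 271 and 327 counts, and ERCC8, its partner, was not called (0.093, adjusted p = 0.38) except with library totals (0.28, adjusted p = 0.015).

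Of the remaining RAD genes, RAD18, the ubiquitin ligase that marks PCNA for lesion bypass, had 27.4, 32.3 and 28 CPM in NC and 19.6, 18.9 and 19.8 CPM in siFSCN1 (-0.59, SE 0.064, adjusted p = 2.1e-07). RAD21, the cohesin subunit, had 139, 151 and 139 CPM in NC and 142, 152 and 157 CPM in siFSCN1 (0.076, SE 0.0462, adjusted p = 0.15), and its groups overlapped. It passed as higher with library totals (0.26, adjusted p = 8.3e-05), upper quartile scaling (0.19, adjusted p = 0.0012), the abundance trend removed (0.30, adjusted p = 1.8e-05), the stricter filter (0.10, adjusted p = 0.047) and both limma fits (0.24 and 0.23). RAD54L2, a remodeller linked to steroid receptors, was not called (-0.12, adjusted p = 0.31, or 0.065 with library totals). RAD21L1, the meiotic relative of RAD21, had 0 to 4 counts in each library and was not tested.

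Ratios of counts between partners of one complex do not depend on how libraries are scaled, and 9 such pairs were compared. The ratios of 6 pairs did not overlap between the groups, with p = 0.1 each in a two-sided exact permutation test and 0.15 after adjustment over the 9 pairs. With 3 libraries a group no smaller p than 0.1 can be reached. The CPM of 71.3% of all tested genes did not overlap either. How often ratios of other gene pairs separate was not computed, so the count of 6 is not read as a trait of these complexes. ERCC4 per ERCC1 differed most, from 0.0885 to 0.152. RAD9A per RAD1 went from 0.546 to 0.819, FANCL per FANCB from 5.03 to 7.5, RAD51B per RAD51C from 0.0824 to 0.0976 and XRCC3 per RAD51C from 1.35 to 1.07, all without overlap. The ratio of XRCC6 to XRCC5 counts also separated, but by little, from 1.26 ± 0.0276 to 1.19 ± 0.0242 (SD, n = 3). FANCD2 per FANCI, ERCC2 per ERCC3 and PALB2 per BRCA2 overlapped between the groups, with exact permutation p-values of 0.3, 0.5 and 0.2. Counts are not scaled to gene length, so a ratio is read only between groups and not as a stoichiometry.

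**Figure D5:**
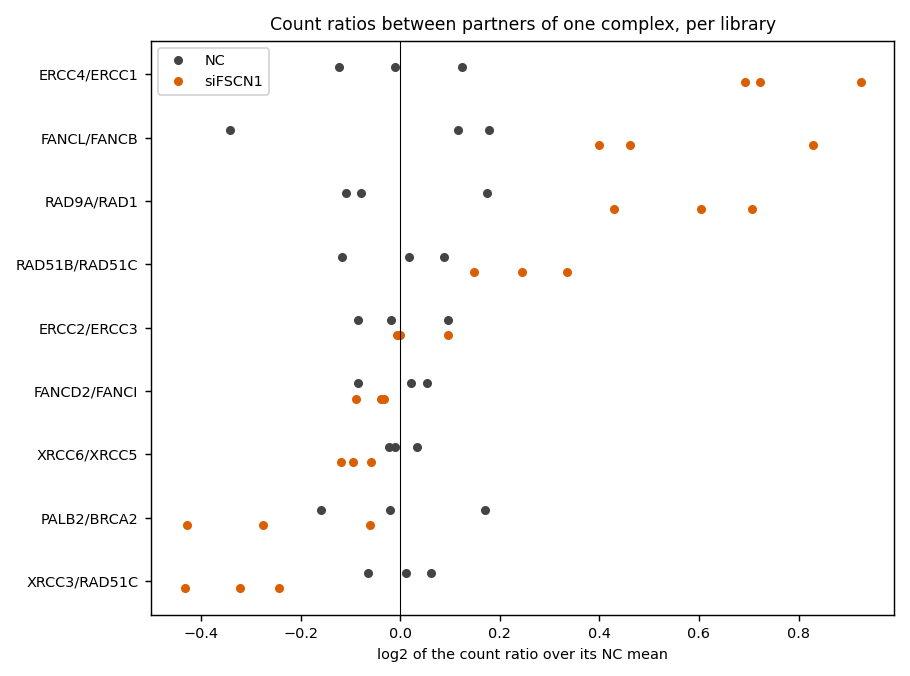
Count ratio of 9 pairs of partners in each library, as log2 over the mean ratio in NC, with NC libraries in grey and siFSCN1 libraries in orange. ERCC4 per ERCC1 stands furthest to the right (0.78 in the ratio of group means), XRCC3 per RAD51C furthest to the left (-0.34), and FANCD2 per FANCI and ERCC2 per ERCC3 stay near 0.

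Several members share exons with other genes, which limits what their counts hold. RAD50, the coiled-coil subunit of the MRN break sensor, had 58 to 118 counts in NC and 94 to 132 in siFSCN1 and was not called (0.24, adjusted p = 0.25). It shares 76.9% of its exonic bases on the same strand with AC116366.7, which held most of the reads and rose at 0.49 (SE 0.0573, adjusted p = 5.1e-07), and RAD50 made up 5.58% of their summed counts. The sum of both was 44.5 ± 3.10 CPM in NC and 62.0 ± 3.08 CPM in siFSCN1 (SD, n = 3), which do not overlap (exact permutation p = 0.1). Without NC replicate 3, RAD50 alone passed (0.46, adjusted p = 0.045), as it did with library totals (0.42, adjusted p = 0.041). ERCC5, the XPG nuclease, had 3, 9 and 6 counts in NC and 12, 11 and 13 in siFSCN1, which made 1.67% of the sum with the readthrough gene BIVM-ERCC5, and that sum went from 13.4 ± 0.316 to 20.1 ± 1.09 CPM (SD, n = 3). RAD54B shares 66.0% of its exonic bases with FSBP, which rose at 0.36, and their sum went from 21.4 to 19.7 CPM. XRCC3 overlaps KLC1 on the opposite strand over 76.7% of its exonic bases and ERCC1 overlaps POLR1G over 28.6%, and these neighbours moved at -0.14 and -0.59. The library kit marked the strand, but whether the counting used it is not given in the sources used here.

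Repair genes outside the symbol pattern were read from 8 further lists. Of 113 distinct tested genes, 52 fell (46.0%) and 28 rose (24.8%), shares close to the 47.2% and 22.6% of the members, and 6 changed at least 2-fold. Over all tested genes, the comparison for each list below as well, 33.2% fell, 35.1% rose and 16.5% changed at least 2-fold. The list of base excision and single-strand break repair leaned lower, with 17 of 22 genes down, 2 up and a median of -0.40 (12 down and 5 up with library totals). Its largest changes were TDP1 (-1.15), which frees trapped topoisomerase I, APEX2 (-1.12), an abasic endonuclease, and NEIL1 (1.30), a glycosylase of oxidised bases. In damage signalling 10 of 16 fell and 5 rose (8 and 6 with library totals), with a list median of -0.39. In that list H2AX, the histone phosphorylated at breaks, stood at -1.35 (SE 0.0542, adjusted p = 2.4e-13) and the kinase ATM at 0.88 (SE 0.0846, adjusted p = 3.7e-08). Of 12 further Fanconi genes 7 fell and 3 rose (5 and 4 with library totals). They ran from UBE2T, the ubiquitin-conjugating enzyme of the core complex, at -0.76 (SE 0.0455, adjusted p = 5.9e-11) to the nuclease FAN1 at 0.97 (SE 0.0766, adjusted p = 2.4e-09).

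In the other lists the counts were closer to even or leaned higher. Among 33 tested recombination genes 12 fell and 8 rose (8 and 16 with library totals, 10 and 13 with upper quartile scaling), and SWSAP1, a recombination factor, fell furthest at -1.21. Of 7 end joining genes 2 fell (NHEJ1 lowest, -0.95) and 2 rose (POLL highest, 0.49), and the list median was 0.0022. With library totals 1 fell and 4 rose. Of 11 further excision repair genes 3 fell and 5 rose (2 and 7 with library totals), from the damage sensor DDB2 at -0.97 to UVSSA at 0.77. Of 9 lesion bypass genes 1 fell and 3 rose (0 and 6 with library totals), with the polymerase POLI at 1.09. None of the 3 direct reversal genes (MGMT, ALKBH2 and ALKBH3) was called by edgeR or DESeq2 and none had an unadjusted p under 0.05 in edgeR, while 2 passed as higher with library totals.

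Replication fork genes fell more often than they rose, while 33.2% of all tested genes fell and 35.1% rose. Of 28 genes of the MCM helicase, GINS, clamp, clamp loader and replicative polymerases, 24 fell and 2 rose, under library totals 24 and 4, and the list median was -0.61 beside -0.19 for the repair members. MCM7 (-1.21), MCM6 (-1.05), GINS2 (-1.04), CDC45 (-1.02) and RFC5 (-1.01) fell at least 2-fold. Of the 8 E2F genes 6 fell and 2 rose (4 and 2 with library totals), with E2F2, an activator, at -1.15 (SE 0.11, adjusted p = 3.4e-08) and E2F3, another activator, at 0.64 (SE 0.0792, adjusted p = 1e-06). The part of these shifts in the values of the repair genes was not tested.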

How the data were processed

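Polyadenylated RNA of A549 cells was sequenced in 6 libraries, 3 NC and 3 siFSCN1, grouped by their titles. The authors deposited raw counts per gene (30230 genes) and FPKM values (29899 genes). The study's methods name HISAT2 and uniquely mapped reads, the submitters' processing notes name TopHat2 and GRCh38, and how reads were counted, with or without strand and on which annotation, is not given in the sources used here. Library totals ran from 27967301 to 36560919 counts, counting error is relatively larger the fewer counts a gene has, and no pair of libraries agreed within sampling noise.

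Genes were kept by filterByExpr (17076), scaled by TMM and compared in edgeR 4.0.16 (R 4.3.3) by the quasi-likelihood test, without covariates, with Benjamini-Hochberg adjustment over all tested genes. The study used DESeq2, which was run as an alternative (1.42.0), as were other scalings and filters, limma 3.58.1 on log2(FPKM + 0.1) and log2(FPKM + 1), removal of the abundance trend, a replicate block and leaving out each library. "Called" means an adjusted p under 0.05. SE is the standard error of the log2 fold change. Exact permutation tests were two-sided. Overlaps of at least 5% of exonic bases and pseudogene names came from GENCODE release 44, promoters from RefSeq. The members and lists were chosen with earlier results of these data known. The values of 4 tested members, which enter the counts over all members, are not reported here. Values per library are given for members changed at least 2-fold and, in each role, the lowest and highest member at 1 FPKM or more, and for some others by range. Genes of other lists are named where changed at least 2-fold or else as the lowest and highest, and HUS1, ATM and XPC were chosen after their values were seen.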

Additional observations from a re-analysis of the deposited data

How the results depend on the processing

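FSCN1 stayed lower with each scaling, DESeq2, both limma fits, the replicate block and each library left out. The count of lower members moved from 25 to 15 with library totals and to 16 with each limma fit, on log2(FPKM + 0.1) or log2(FPKM + 1). These limma fits used the deposited FPKM without TMM scaling. The median of all tested genes was 0.17 and 0.081 in them, beside 0.22 with library totals and 0.031 in the main analysis. Both limma scales also understate changes of low genes, and the count changed at least 2-fold moved from 3 to 1 (MSH5) and 0 with them. DESeq2 called 24 lower and 11 higher. The median of the members moved from -0.19 to -0.077 with upper quartile scaling, -0.0072 with library totals, and -0.02 and -0.015 with the limma fits. Of called members 55.9% were lower with upper quartile scaling, 45.5% with library totals and 51.6% and 50% with the limma fits, against 67.6% in the main analysis. The cause was not tested beyond the shift of all genes that each scaling makes. Leaving out 1 library gave 24 to 26 lower, 11 to 12 higher, 2 to 4 changed at least 2-fold and medians of -0.22 to -0.17. Call and direction were kept in all alternatives by 15 of the 25 lower members (among them ERCC1, FANCA, FANCC, FANCE, MSH3, MSH6, PMS2, RAD1, RAD18, RAD51C, RAD54L, XRCC3, XRCC5 and XRCC6) and 9 of the 12 higher ones (among them ERCC6, FANCF, MLH3, MSH5, RAD17, RAD51D, XRCC1 and XRCC4). Signs turned only for small changes. With upper quartile scaling ERCC4 stood at 0.017 and BRCA1 at 0.034. With library totals RAD54L2 stood at 0.065, ERCC2 at 0.02, RAD51AP1 at 0.057, ERCC4 at 0.087 and BRCA1 at 0.10. With the abundance trend removed BRCA2 stood at -0.09, RAD50 at -0.051 and XRCC2 at -0.025. With limma on log2(FPKM + 0.1) RAD54L2 stood at 0.044, RAD51AP1 at 0.031, ERCC4 at 0.056 and BRCA1 at 0.079, and on log2(FPKM + 1) at 0.02, 0.027, 0.024 and 0.059. Libraries of the same replicate number did not deviate together (correlations of -0.0347, 0.0398 and -0.0841), so no pairing by number was seen. With 3 libraries a group this cannot exclude that they were handled in pairs. The replicate block gave 24 lower and 13 higher members, an FSCN1 log2 fold change of -3.90 and a median of -0.19. Under the block RAD9A passed (0.13, adjusted p = 0.048) and FANCB did not (-0.34, adjusted p = 0.062).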
